A study of Mus musculus with 6 samples.

Results

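Zic1, Zic2, Zic4 and Zic5 encode zinc-finger transcription factors of the Zic family, and their transcripts were measured in the head ectoderm that overlies the mouse eye, on embryonic day 9.5, in wild-type and Pax6-/- embryos. The members were every probe of these 4 gene symbols, 9 of the 45281 probes on the array. They were chosen by the higher Zic1 signal of the knockout on these same arrays, so the knockout and wild-type levels of the members are described here without a test. A gene counted as expressed where a probe had a detection p-value under 0.01, the array software's measure of signal above background, on at least 3 of the 6 arrays. Zic1 and Zic5 met this on all 6 arrays, and Zic2 and Zic4 did not meet it.

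The wild-type samples were lens placode from embryos labelled wild type (3 arrays), and the knockout samples were surface ectoderm from Pax6-/- embryos (3 arrays), both on a mixed FVB and 129 background. Pax6, a transcription factor with a paired domain and a homeodomain, is needed for the eye to form. Tissue was laser-microdissected from 10 µm sections stained with eosin, RNA of 3 embryos per genotype was pooled, and triplicate samples of each pool were amplified and hybridised to Illumina bead arrays. Each genotype is therefore 1 pool, the spread between arrays is technical, and p-values compare 2 pools, so that for embryos they are too small. Of 2 Pax6 probes detected on at least 3 arrays, only the brighter is given here. This probe stood at a log2 intensity of 11.30, 11.06 and 10.93 on wild-type arrays 1, 2 and 3. On knockout arrays 1, 2 and 3 it stood at 10.01, 10.14 and 10.23, lower in every knockout array, and it was detected on all 6. Which part of Pax6 was deleted is not stated in the labels, so the probe may lie outside it and checks the labels only in so far as the genotypes differ. The region captured and the genotype cannot be told apart. Between 16242 and 17735 probes were detected per array. Slide 1 carried wild-type arrays 1 and 3 and knockout arrays 2 and 3, and slide 2 carried wild-type array 2 and knockout array 1. Of lens placode genes, Pax6, Six3, Sox2, Maf, Prox1, Mab21l1, Cryge, Crybb3 and Otx1 were detected on all 3 wild-type arrays. Cryab was detected on 2 of them, and Foxe3 and Cryaa on 0 arrays. Pax6, Six3, Sox2, Mab21l1 and Otx1 were also detected on all 3 knockout arrays, so their detection does not set the 2 tissues apart. Maf, Cryge and Crybb3 were detected on 0 knockout arrays and Prox1 on 2. In a pool of tissue, fewer cells of a type and less RNA per cell cannot be told apart.

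Zic proteins bind DNA through tandem C2H2 zinc fingers related to those of the Gli factors, the transcriptional effectors of hedgehog signalling. In vertebrate embryos Zic genes are known for their roles at the border of the neural plate, in the dorsal neural tube, in neural crest and in head mesenchyme. Zic1 and Zic4 act together in cerebellar development, loss of Zic2 function causes holoprosencephaly in human and mouse, and Zic5 is required for neural tube closure and crest development in the mouse. The genes lie next to each other as pairs. By gene order in the RefSeq table, Zic1 and Zic4 are adjacent on chromosome 9, and Zic5 and Zic2 on chromosome 14.

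The start regions of the members are shown because adjacent genes of a pair differed in detection. RefSeq promoter windows (GRCm38.p6, 250 bases before to 50 bases after the transcript start) were held for 3 of the 4 members and are written 5′ to 3′ on the strand of the gene. Capitals mark matches to a GC box (GGGCGG) or a CCAAT box (CCAAT) on either strand. The Zic1 window is at chr9:91365719-91366018 on the minus strand, the Zic4 window at chr9:91368722-91369021 on the plus strand and the Zic5 window at chr14:122465609-122465908 on the minus strand. The member without a window is Zic2, so the windows of Zic5 and Zic2 cannot be compared.
Zic1: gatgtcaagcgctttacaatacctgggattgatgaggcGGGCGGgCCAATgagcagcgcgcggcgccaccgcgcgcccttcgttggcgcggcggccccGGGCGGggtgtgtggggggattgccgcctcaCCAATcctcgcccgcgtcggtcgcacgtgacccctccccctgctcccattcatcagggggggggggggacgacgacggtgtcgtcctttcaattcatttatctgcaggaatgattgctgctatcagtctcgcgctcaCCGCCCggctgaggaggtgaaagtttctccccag
Zic5: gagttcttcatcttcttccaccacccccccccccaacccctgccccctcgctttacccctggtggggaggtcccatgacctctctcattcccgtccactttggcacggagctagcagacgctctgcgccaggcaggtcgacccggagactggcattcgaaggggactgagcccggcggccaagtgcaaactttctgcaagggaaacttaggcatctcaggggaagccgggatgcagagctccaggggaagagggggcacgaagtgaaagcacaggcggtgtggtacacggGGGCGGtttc
Zic4: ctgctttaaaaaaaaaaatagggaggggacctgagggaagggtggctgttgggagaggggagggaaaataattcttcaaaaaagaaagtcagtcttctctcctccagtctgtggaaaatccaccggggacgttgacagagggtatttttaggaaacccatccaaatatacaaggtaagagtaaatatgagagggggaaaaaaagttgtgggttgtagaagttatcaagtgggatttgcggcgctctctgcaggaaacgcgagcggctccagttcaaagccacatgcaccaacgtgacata

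The Zic1 and Zic4 transcripts start 3204 bases apart and run away from each other. The Zic1 window had a GC content of 65.3% and held 31 CpG dinucleotides, a number reached by 10.6% of the 32851 mouse promoter windows. The Zic5 window had a GC content of 62.7% and held 15 CpG dinucleotides, and the Zic4 window had 46.0% and 8, against medians of 52.7% and 7 over all windows. The CpG number of Zic5 was reached by 34.6% of windows and that of Zic4 by 48.65%. The Zic1 window held 3 GC boxes and 2 CCAAT boxes, the Zic5 window held 1 GC box, and the Zic4 window had no match to either. These motifs had a match in 35.7% and 37.4% of all windows. On both strands of these windows there was no match to a Pax6 paired-domain core (TTCACGC), a homeodomain site (TAATTA), a Zic site (CCTGCTG) or a Gli site (GACCACCCA), which had a match in 1.26%, 5.29%, 10.5% and 0.253% of all windows. These counts describe the letters of 300 bases only.

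Zic1 transcript was higher in the knockout pool. Its log2 intensity, after background correction and quantile normalisation, was 6.76, 6.94 and 6.71 on wild-type arrays 1, 2 and 3 and 8.72, 8.21 and 8.98 on knockout arrays 1, 2 and 3. Every knockout array lay above every wild-type array, with a gap of 1.27 between the lowest knockout and the highest wild-type value. The wild-type mean was 6.80 ± 0.12 (SD, n = 3) and the knockout mean 8.63 ± 0.39 (SD, n = 3), a difference of 1.83 on the log2 scale (SE 0.28), or 3.56-fold. The spread between knockout arrays was the wider, knockout array 2 being the lowest and knockout array 3 the highest of them. The difference was 1.86 between the arrays of slide 1 and 1.78 between those of slide 2.

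The raw signals of Zic1 showed the same order before any correction. They were 242, 232 and 228 on the wild-type arrays and 541, 405 and 635 on the knockout arrays. Each is a mean over beads of the same probe, 29 to 46 per array, with a standard error over beads of 2.72% to 4.14% of the signal. The lowest signal that was detected on an array, a measure of the background, was between 158 and 193, so the wild-type signals of Zic1 stood little above it. The ratio of the mean raw signals was 2.25, lower than the 3.56-fold after background correction. The background is part of every raw signal. With no background correction at all the log2 difference was 1.15.

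**Figure D1:**
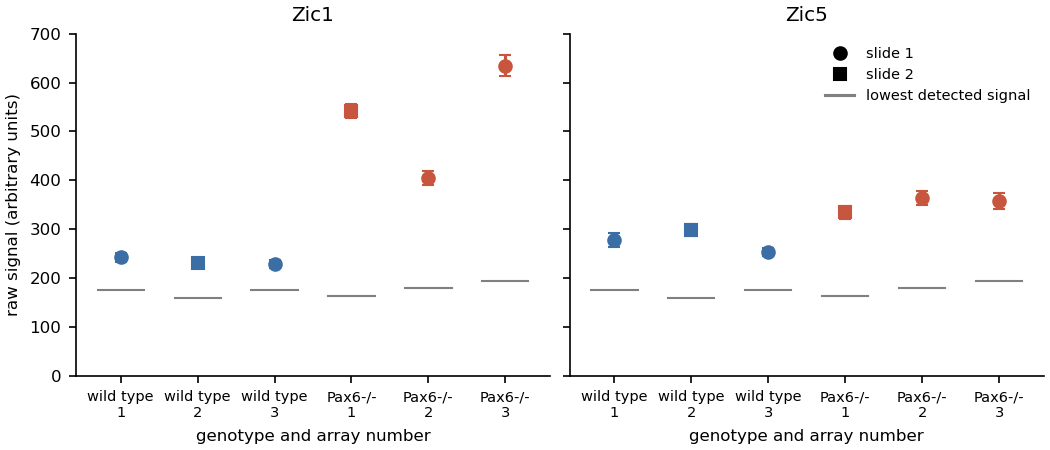
Raw signal of the Zic1 and Zic5 probes on each array (vertical axis, arbitrary units, starting at 0), with bars for the standard error over beads and grey lines for the lowest detected signal of that array. Zic1 lies at 228 to 242 in wild type and 405 to 635 in Pax6-/-, and Zic5 at 254 to 298 and 334 to 363.

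Zic5 was also higher in the knockout, by less. Its log2 intensity was 7.15, 7.55 and 7.02 on wild-type arrays 1, 2 and 3 and 7.77, 7.98 and 7.78 on knockout arrays 1, 2 and 3. The groups did not overlap, and the gap between them was 0.22, less than the wild-type SD of 0.28. The means were 7.24 ± 0.28 (SD, n = 3) and 7.84 ± 0.12 (SD, n = 3), a difference of 0.60 (SE 0.27), or 1.52-fold. The difference was 0.80 on slide 1 and 0.22 on slide 2, where wild-type array 2 was the highest of its group and knockout array 1 the lowest. It was 0.36 with no background correction. Raw signals were 278, 298 and 254 in wild type and 334, 363 and 357 in knockout, with standard errors over 31 to 42 beads of 3.25% to 5.32%.

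The 2 expressed members were also compared within each array. Zic1 minus Zic5 on the same array was -0.39, -0.61 and -0.31 in wild type and 0.94, 0.23 and 1.20 in knockout. The groups did not overlap, and their means differed by 1.23 on the log2 scale. The Zic1 signal chose the members, so this too is a description. Over all 9190 genes tested, 24 genes, Zic1 included, had a difference at least as high as that of Zic1 (0.261%), and 779 genes one at least as high as that of Zic5 (8.48%). Of the 2 members tested, 1, Zic1, was among the genes called higher at a limma adjusted p under 0.05, against 1.51% of all tested genes (139 higher, and 162 or 1.76% lower, 3.28% in either direction). This count follows from how the members were chosen and is given as a description. Knockout and wild-type arrays were apart without overlap for both members, as for 11.2% of tested genes in the higher and 11.5% in the lower direction (22.8% in all).

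Zic2 transcript was not detected. Its 2 probes had detection p-values of 0.171 to 0.792 over the 6 arrays, and raw signals of 126 to 159. Every one of these values lay below the lowest detected signal of its array. The means of log2 intensity were 4.85 ± 0.13 for wild type and 4.74 ± 0.02 for knockout (SD, n = 3) on one probe, and 4.67 ± 0.09 and 4.86 ± 0.11 on the other. The wild-type mean was the higher on one probe and the lower on the other, and the groups overlapped on both. A level below background gives no difference between genotypes and does not show that the gene was silent.

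Zic4, the neighbour of Zic1, was not detected in either genotype by most of its probes. Of its 5 probes, 3 were detected on 0 arrays and the others on 1 array each, which are the members nearest to the limit of 3 arrays. One was detected on wild-type array 1 only (log2 intensity 5.75), with 4.42 to 4.80 on the other arrays. One was detected on knockout array 3 only (6.47), with 4.60 to 4.81 on the other arrays. These signals fell in opposite genotypes and were not shared by the other probes of the gene on the same array. Of all 45281 probes, 3054 (6.74%) were detected on exactly 1 array. The values of the other Zic4 probes lay between 4.41 and 4.89.

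**Figure D2:**
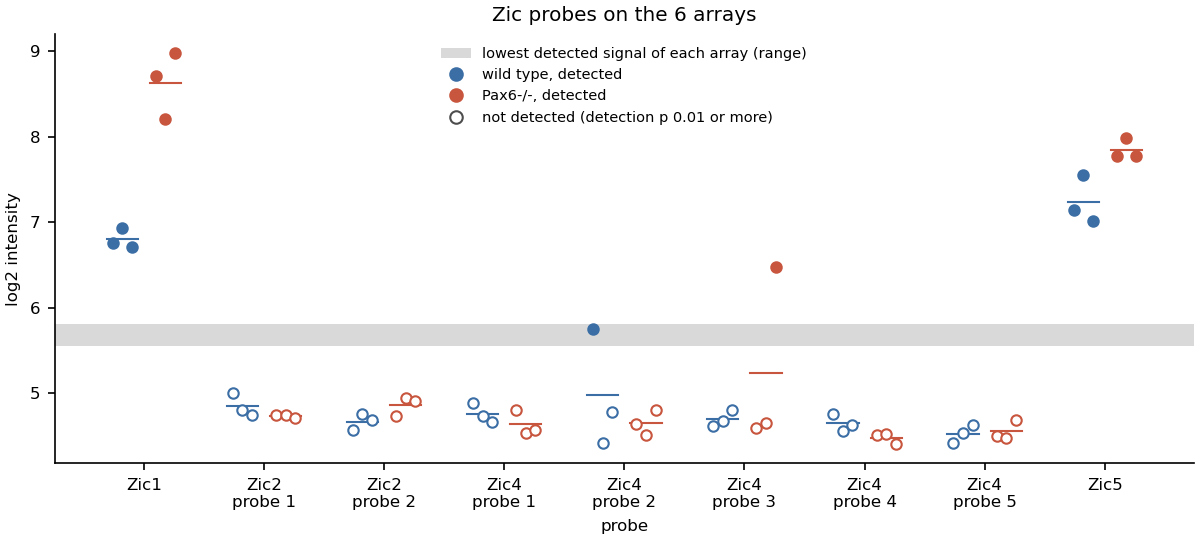
Log2 intensity (vertical axis) of each Zic probe (horizontal axis) on the 6 arrays, wild type in blue and Pax6-/- in red, with a short line at each group mean and open symbols where the probe was not detected. The single probes of Zic1 and Zic5 lie above the grey band of lowest detected signals on all 6 arrays, and those of Zic2 and Zic4 lie below it with 2 exceptions.

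Of 17 alternative settings, 5 (the detection filters, the blocks and the mean of all kept probes) leave the difference of a gene with 1 detected probe as it is. Over the other 12 it ranged from 1.15 to 2.05 for Zic1 and from 0.22 to 0.80 for Zic5. With 1 array left out it was 1.66 to 2.05 for Zic1 and 0.49 to 0.76 for Zic5. Median scaling, which moved the median of all genes from -0.01 to -0.13 and the share of higher calls from 46.2% to 26.1%, gave 1.73 and 0.50. In the authors' deposited normalised values the differences were 1.97 and 0.66.

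**Figure D3:**
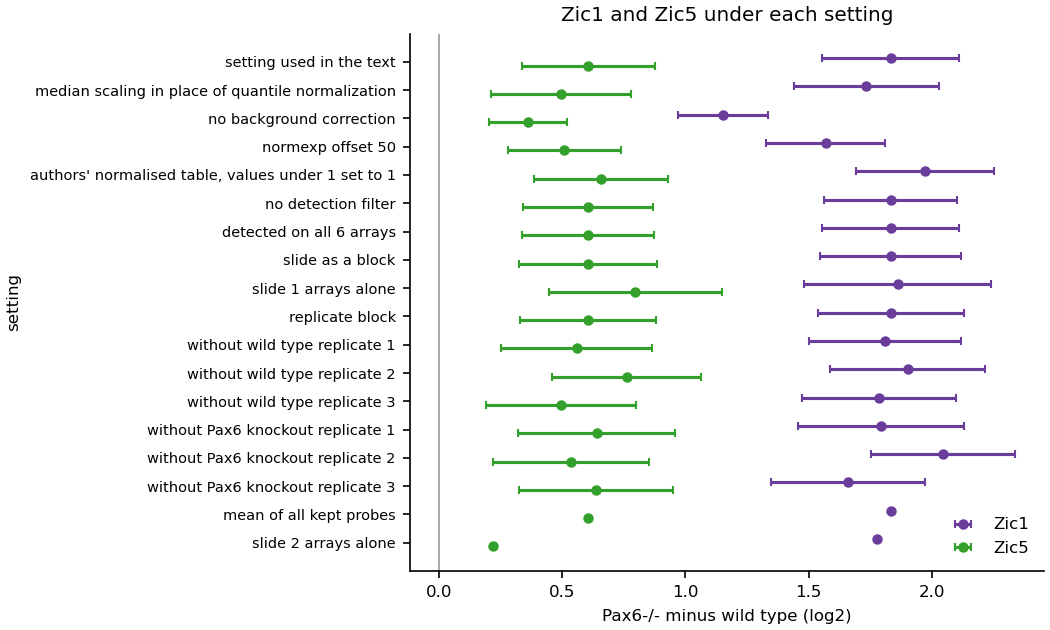
Knockout minus wild-type log2 difference (horizontal axis) of Zic1 in purple and Zic5 in green under each setting (vertical axis). Bars show the standard error of the fit, and the mean of all kept probes and slide 2 alone have none. All points lie above 0, the lowest being 0.22 for Zic5 on slide 2 and 1.15 for Zic1 without background correction.

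The genes next to the pairs did not pass the test. Tbc1d2b, beside Zic1, stood at 0.55 (SE 0.36, limma adjusted p = 0.482), and Pcca, a subunit of propionyl-CoA carboxylase beside Zic2, at -0.38 (SE 0.31, limma adjusted p = 0.589). Plscr5, beside Zic4, and Clybl, beside Zic5, were detected on 0 arrays.

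The genes whose levels over the 6 arrays ran closest to those of Zic1 were Tnik, Nrp2, Cxcr6, Bmp4 and Cldn11. Likeness was the root-mean-square difference of log2 levels, each centred on its own mean, over 8858 genes. It was 0.15 for Tnik, a kinase that acts with TCF factors, 0.23 for the semaphorin co-receptor Nrp2, 0.27 for the chemokine receptor Cxcr6, 0.27 for the growth factor Bmp4 and 0.29 for the tight-junction protein Cldn11. Zic1 itself varied by 0.95 around its mean. Since Zic1 was chosen for its level in the knockout, and these genes for a pattern like it, their higher knockout levels follow from the choice and are given without a test. Tnik and Nrp2 shared the low value of Zic1 on knockout array 2. Cxcr6 (6.81 to 6.99), Bmp4 (9.78 to 9.95) and Cldn11 (9.41 to 9.56) differed little among the knockout arrays. Of these, Cxcr6 and Bmp4 were lowest on knockout array 1 and Cldn11 on knockout array 2. Bmp4 lay 1.74 higher in the knockout on the log2 scale (SE 0.20), Cldn11 2.09 (SE 0.23) and Nrp2 1.62 (SE 0.35). A further Bmp4 probe lay 3.05 higher. Tnik and Cxcr6 were not detected on any wild-type array, so they passed the detection filter through the knockout arrays alone, and lay at least 2.63-fold and 2.42-fold higher. The bound takes, on each array of the dim group, the higher of the probe's own value and the lowest detected signal. Closest to Zic5 were Reep1, Rnf26 and Slc22a23, at 0.07, 0.07 and 0.08.

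**Figure D4:**
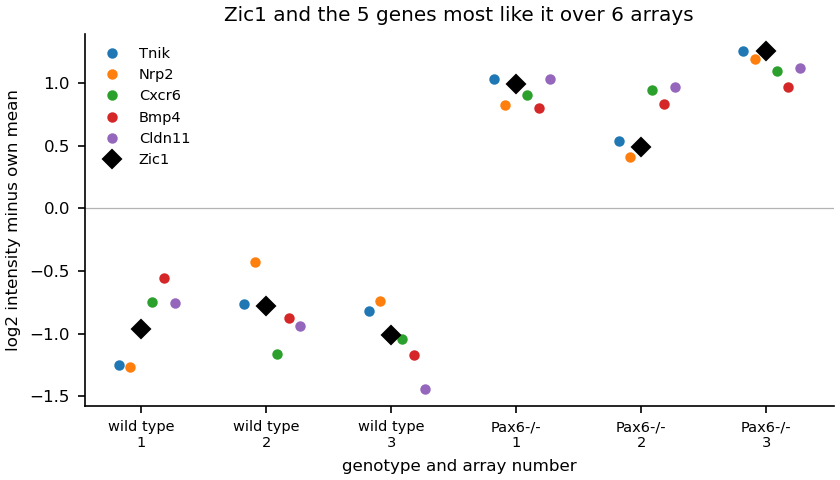
Log2 intensity of each gene minus its own mean over the 6 arrays (vertical axis) for Zic1, black diamonds, and the 5 genes with the smallest root-mean-square difference from it, by array (horizontal axis). Values of Zic1 are -0.96, -0.78 and -1.01 in wild type and 1.00, 0.49 and 1.26 in Pax6-/-.

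Genes that work with or below Zic factors were set beside all tested genes, of which 3.28% passed the test in either direction. In the Gli, Glis and hedgehog list, 11 of 18 genes were tested, 1 rose and 0 fell, with a median of -0.06 against -0.01 over all tested genes. Of these 11, 4 had an unadjusted limma p under 0.05, against 16.9% of all tested genes. The gene that rose, Kif7, a ciliary kinesin that regulates Gli factors, stood at 7.10, 6.61 and 6.46 on the wild-type arrays and 8.37, 8.77 and 8.41 on the knockout arrays, a change of 1.79 (SE 0.28, limma adjusted p = 0.00591). Its call was lost on slide 1 alone (adjusted p = 0.081). The hedgehog target genes Gli1 (-0.88, SE 0.25, limma adjusted p = 0.0912) and Ptch1 (-0.68, SE 0.26, adjusted p = 0.216), named after their values were seen, did not pass. The ligand genes Shh and Ihh were detected on 0 arrays.

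Neural plate border and crest genes rose in part. Of 20 listed genes 10 were tested, 2 rose and 0 fell, with a median of 0.01 (-0.08 with median scaling). Tfap2b, an AP-2 factor of crest and ectoderm, rose by 0.75 (SE 0.11, limma adjusted p = 0.0044). It stood at 10.49 to 10.75 in wild type and 11.23 to 11.42 in knockout. Sox9, a regulator of crest and cartilage, rose by 0.74 (SE 0.10, limma adjusted p = 0.00223), from 11.33 to 11.48 in wild type to 11.96 to 12.26 in knockout. Both calls were lost without an intensity trend in the fit, and that of Tfap2b also on slide 1 alone. Over the alternatives the limma adjusted p was up to 0.106 for Tfap2b and 0.0801 for Sox9. The 5 further Tfap2b probes stood at 0.86 to 1.11, with 2 of them called, and a further Sox9 probe at 1.27, not called. Pax7, Msx2, Sox10, Snai1, Gbx2, Dlx6 and Prdm1 were detected on 0 arrays. Pax3, which acts beside Zic1 at the plate border in Xenopus, and Foxd3 were each detected on 2 arrays.

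Of 13 genes reported as Zic targets, 5 were tested, 1 rose and 1 fell, with a median of 0.12 (-0.04 with median scaling). Ephb1, a guidance receptor downstream of Zic2 in mouse retinal axons, rose by 1.09 (SE 0.21, limma adjusted p = 0.0179), from 7.75 to 8.12 in wild type to 8.82 to 9.19 in knockout. A further Ephb1 probe stood at 0.33 and was not called. Ephb1 was no longer called when any 1 array other than wild-type array 3 and knockout array 2 was left out (limma adjusted p up to 0.0748). The gene that fell, the dopamine receptor gene Drd1, was detected on 3 wild-type and 0 knockout arrays. It thus passed the detection filter through the wild-type arrays alone. It was at least 1.48-fold lower, and its call (limma adjusted p = 0.03) is given as a description. That call was lost without any 1 array (adjusted p up to 0.104).

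The 13 genes for reported Zic partners and cofactors gave 10 tested, 0 risen and 0 fallen by limma, with 2 whose genotypes did not overlap (22.8% of all tested genes) and a median of 0.04 (-0.12 with median scaling). Parp1, a DNA repair enzyme found with Zic2, stood at -0.03 (SE 0.11) and Smad3, a TGF-beta effector, at 0.10 (SE 0.10). Further probes of Parp1 stood at 0.38 and 0.72 and a further Smad3 probe at -0.49, none of them called. Of 16 holoprosencephaly genes 10 were tested, 0 rose and 0 fell by limma, with 3 lower in every knockout array (11.5% of all tested genes) and a median of 0.03 (-0.12 with median scaling). Gas1 and Cdon, hedgehog co-receptors, stood at -0.37 (SE 0.16, limma adjusted p = 0.288) and -0.03 (SE 0.22, limma adjusted p = 0.973). At an unadjusted p under 0.05 limma found 2 genes of the partner list and 3 of the holoprosencephaly list, against 16.9% of all tested genes.

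Markers of tissues near the eye that are known to hold Zic transcripts were set beside the higher Zic1 level. Neural tube markers were for the most part below detection. Of 19 neural tube genes on the array, 12 were detected on 0 arrays, among them Wnt1, Wnt3a, Pax7, Olig3, Sox1, Sox3, Foxb1 and Rfx4, and 16 on fewer than 3. Of the 3 tested, 0 rose and 1 fell, with a median of -0.50. Sox2 fell by 0.95 (SE 0.20, limma adjusted p = 0.0271), a gene that the lens placode also expresses, and its call was lost without any 1 array other than knockout array 2 (adjusted p up to 0.0956). The summed normalised intensity of the list was 1121 to 1236 on the wild-type arrays and 908 to 1030 on the knockout arrays. Without Sox2 the sum was 601 to 694 in wild type and 652 to 705 in knockout, so the lower sum lay in Sox2. Nes, which encodes the progenitor filament protein nestin and is named after its values were seen, stood at 0.95 (SE 0.34, limma adjusted p = 0.179). It was detected on 2 wild-type and 3 knockout arrays, at 5.20 to 5.82 and 6.21 to 6.82, without overlap. The part of neural tissue in the Zic1 difference was not tested. Of 10 neuron genes, 7 were detected on 0 arrays and 2 were tested, 0 of which passed by limma (1 at an unadjusted p under 0.05), with Isl1 at 0.85 (SE 0.29, limma adjusted p = 0.148). Their sum was 562 to 765 in wild type and 738 to 1125 in knockout. It leans on Isl1, the brightest of the list on every array, at 8.02 to 8.67 in wild type and 8.55 to 9.57 in knockout, with overlap.

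Head mesenchyme and blood genes rose in part beside Zic1, optic vesicle genes mostly had values above 0, and their part in the Zic1 difference was not tested. Of 11 tested head mesenchyme genes, 9 lay above 0, with a median of 0.63, 2 rose and 1 fell. Alx4, a homeobox gene of craniofacial mesenchyme, rose by 0.99 (SE 0.21, limma adjusted p = 0.0261) and the collagen gene Col3a1 by 0.94 (SE 0.22, limma adjusted p = 0.0407). Pdgfra, which encodes a PDGF receptor, fell by 1.23 (SE 0.15, limma adjusted p = 0.00144). Alx4 was no longer called when any 1 array other than wild-type array 1 and knockout array 3 was left out (limma adjusted p up to 0.102), nor Col3a1 when any 1 array was (up to 0.133). The summed intensity of the list was 3202 to 3302 in wild type and 3752 to 4144 in knockout, and Col1a1, Tbx15 and Snai1 were detected on 0 arrays. Of 6 tested optic vesicle genes 5 lay above 0 and 0 passed by limma (4 at an unadjusted p under 0.05, against 16.9% of all tested genes), with a median of 0.66 and a sum of 1395 to 1580 in wild type and 1548 to 1959 in knockout. Mitf, a pigment cell regulator and the brightest of them, stood at 0.00287 (SE 0.19). The others with higher values, named after these were seen, include Rax, an eye field homeobox gene, at 1.19 (SE 0.30, limma adjusted p = 0.0561), with 6.04 to 6.44 in wild type and 7.30 to 7.52 in knockout. Rax was called when detection on all 6 arrays was required (adjusted p = 0.0301) and without an intensity trend (adjusted p = 0.028). Lhx2, a LIM homeobox gene of the eye field, was detected on 0 wild-type and 3 knockout arrays. It thus passed the detection filter through the knockout arrays alone. It was at least 1.58-fold higher (limma adjusted p = 0.131), which is given as a description. Pax2, a gene of the optic stalk, stood at 1.02 (SE 0.46, limma adjusted p = 0.292). Six3, also on the lens placode list and likewise named after its values were seen, lay below 0. It stood at -0.87 (SE 0.28, limma adjusted p = 0.127), lower in every knockout array, and is among the 4 at an unadjusted p under 0.05. Vax1 and Vax2 were detected on 0 arrays.

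All 4 tested erythroid genes lay above 0, and 3 rose. Hba-a1 rose by 1.58 (SE 0.21, limma adjusted p = 0.00253), Hbb-bh1 by 0.92 (SE 0.14, adjusted p = 0.00487) and Hbb-y by 0.92 (SE 0.14, adjusted p = 0.0044). On slide 1 alone and without an intensity trend 1 gene of the list rose, since neither Hbb-y (adjusted p up to 0.111) nor Hbb-bh1 (up to 0.069) then passed. The median of the list was 1.15 and its sum 2275 to 2626 in wild type and 4575 to 5062 in knockout, while Gata1 and Epor were detected on 0 arrays. Of 8 endothelial genes 5 were detected on 0 arrays, Pecam1, Cdh5, Kdr, Tek and Tie1. The list's sum was 306 to 606 in wild type and 356 to 535 in knockout, with 0 of 2 tested genes called by limma (0 at an unadjusted p under 0.05) and Cldn5 at 0.68 (SE 0.36, limma adjusted p = 0.373).

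Lens placode and surface ectoderm markers describe the captured epithelium. Of 10 tested lens placode genes 8 fell (4 on slide 1 alone) and 0 rose, with a median of -1.63. With detection on all 6 arrays required 4 fell, and Maf, Prox1, Cryge, Crybb3 and Cryab were then not tested. Pax6 itself fell by 0.97 (SE 0.13, limma adjusted p = 0.00237). Prox1 fell by 2.82 (SE 0.34, adjusted p = 0.00134). Cryge, Maf and Crybb3, all among the 8, were detected on 0 knockout arrays and passed the detection filter through the wild-type arrays alone. Their calls are given as a description, with Cryge and Maf at least 3.59-fold and 3.18-fold lower (limma adjusted p = 0.00092 and 0.00115). Of 11 tested surface ectoderm genes 3 rose and 1 fell, with a median of -0.11, and 5 lay above 0. Without overlap between genotypes, 3 were higher and 3 lower in the knockout (11.2% and 11.5% of all tested genes). The list's summed intensity was 16504 to 17325 in wild type and 15014 to 15457 in knockout. The basal keratin gene Krt14 rose by 2.80 (SE 0.30, limma adjusted p = 0.000704) and the desmosomal gene Perp by 1.26 (SE 0.25, limma adjusted p = 0.021). Krt14 was detected on 2 of 3 wild-type arrays. Its wild-type values of 5.32 to 5.95 lay near the lowest detected signals of those arrays (5.55 to 5.68). Its change ranged from 1.45 to 3.24 over the alternatives. The homeobox gene Dlx3 fell by 0.88 (SE 0.12, limma adjusted p = 0.00249), a call lost without an intensity trend (adjusted p = 0.0517). Perp was no longer called when wild-type array 1, or any 1 knockout array, was left out (limma adjusted p up to 0.0816), and in each case 1 gene of the list rose. The list's median was 0.06 without wild-type array 1.

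**Figure D5:**
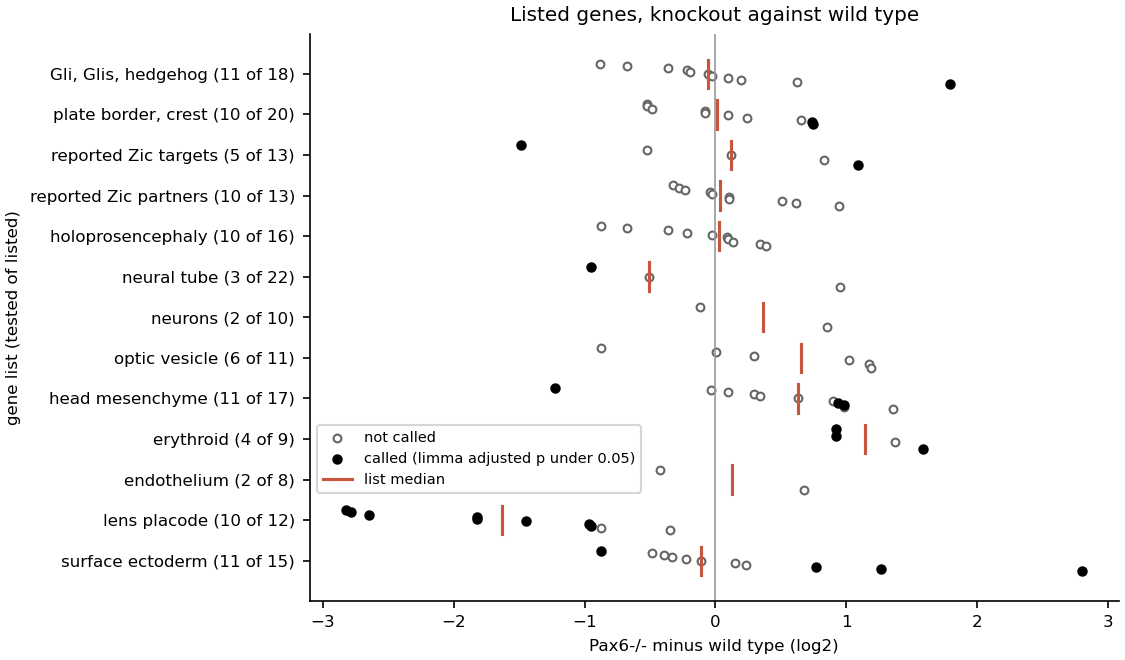
Knockout minus wild-type log2 difference (horizontal axis) of every tested gene of each list (vertical axis, with the number tested of those listed), filled where called and open where not, with a red line at the list median. The erythroid median lies at 1.15 and the lens placode median at -1.63, and the medians of the lists of Zic partners, Gli and holoprosencephaly genes lie between -0.06 and 0.04.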

How the data were processed

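Expression was measured on 6 Illumina bead arrays. The deposited raw table gives, per the file headers, each probe's intensity as the mean signal of its beads (linear, with no normalisation between arrays), a detection p-value, the bead number and the bead standard error. Per the submitters' processing notes GenomeStudio was used, whose version is not stated. A deposited table of intensity normalised by the authors, by an unstated method, served as an alternative. Platform annotation gave 34885 of 45281 probes 1 gene symbol.

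R 4.3.3 and limma 3.58.1 were used for normexp background correction from the detection p-values (offset 16), quantile normalisation and log2. Probes detected (p-value under 0.01) on 3 or more arrays were kept, the brightest probe representing each gene (9190 genes). Genotypes were compared with limma's linear model with an intensity trend, p-values being two-sided and Benjamini-Hochberg adjusted over all genes. A gene was called, and is said to have risen or fallen, at an adjusted p under 0.05. The fit was tested on simulated data. The number of arrays limits the precision.

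The members and 13 gene lists were chosen with earlier results of these data known. Named genes are up to 4 called genes with the largest change per pathway list and up to 3 per marker list, or, where none was called, the brightest tested (2 and 1), with the members, their neighbours and the genes closest in pattern, provisional names passed over. Markers given as undetected were added as defining genes of their tissue. Alternatives varied the background correction, scaling, detection filter, slide, replicate number, arrays left out, moderation and probe choice.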

Additional observations from a re-analysis of the deposited data

How the results depend on the processing

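Numbers of called genes moved most. Against 139 higher and 162 lower, there were 89 and 107 with no detection filter, 28 and 40 on slide 1 alone, 81 and 101 with a replicate block, 72 and 104 without an intensity trend, and 264 lower with median scaling. With 1 array left out they were 59 to 107 higher and 84 to 119 lower. Replicate numbers did not pair the arrays, since deviations of same-numbered arrays correlated at -0.03, -0.02 and -0.002 and no array correlated best with its own number. The Zic1 and Zic5 differences with the replicate block were 1.83 and 0.60. Only without background correction (1.15 and 0.36) and, for Zic5, on slide 2 alone (0.22) did they move by more than the spread between arrays. Among 33 named genes, 15 of the 23 called missed the threshold under at least 1 alternative. The sign turned for 4 uncalled genes near 0: Cdon with 1 array left out (-0.21 to 0.12), Parp1 likewise (-0.082 to 0.052), Smad3 with median scaling (-0.045), and Mitf with median scaling (-0.16), the authors' table (-0.0022), slide 1 alone (-0.0035) and 1 array left out (-0.11 to 0.10). The cause was not tested. Signal over background limits Zic2 and Zic4, for which no difference can be given.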
